A study of Rattus norvegicus with 19 samples.

Results

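The comparison set the livers of 6 male Wistar rats on a high fat diet against those of 7 male Wistar rats on a low fat control diet, over all genes of the array. These are the 13 arrays titled for the high fat and control diets, of 19 in the series, and the other 6 arrays came from rats on a high protein diet. By energy, carbohydrate made up 70% of the control diet, fat 10% and protein 20%. In the high fat diet carbohydrate made up 20%, fat 60% and protein again 20%, so fat took the place of carbohydrate. Feeding began at 8 weeks of age and lasted 4 months. All rats lived 1 to a cage, with light by night and dark by day, and were killed in the early morning without fasting, and the labels give no allele or drug for any of them. Each array paired the RNA of 1 rat (Cy5) with 1 pool of liver RNA (Cy3), so every value is a log2 ratio of that rat to the pool.

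The liver is the main site where a rodent turns dietary sugar into fat. Glucose and fructose are broken down to pyruvate and acetyl-CoA, acetyl-CoA is built into palmitate by acetyl-CoA carboxylase and fatty acid synthase, and palmitate is elongated and desaturated with NADPH as reductant. The transcription factors SREBP-1c, which insulin induces, and ChREBP, which senses sugar, switch on many of these genes. Fatty acids that reach the liver are instead taken into mitochondria and peroxisomes and oxidised, a programme that PPAR alpha controls. Into bile, cholesterol leaves the liver as bile acid or as free sterol.

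Of 22107 features measured (11498 named genes and 10609 probes without a gene name), 804 differed between the diets by limma at a Benjamini-Hochberg adjusted p under 0.05 over all features, which is 3.64% of them. Higher in high fat livers were 405 (1.83%) and lower were 399 (1.8%). Among the named genes 250 rose and 216 fell, together 4.05% of them. Large changes were more often falls: 45 features fell and 31 rose by over 2-fold, and 12 fell and 3 rose by over 4-fold. Some of these features may measure the same gene. Among them were 24 unnamed probes, of which 8 lay within 50 kb of a named gene called in the same direction. For 438 features (1.98%) the groups did not overlap, with the high fat livers above all controls in 183 (0.828%) and below in 255 (1.15%). When slide entered the fit as a fixed block (called the slide-adjusted fit here) 443 features passed, 209 higher and 234 lower, and with arrays centred on their median in place of loess 690 passed, of which 39.7% were higher against 50.4% here.

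On these 13 arrays between 54.2% and 67.5% of the spots were well above background in Cy5. The SD of the log ratios was 0.45 on the array of control 6 and between 0.204 and 0.293 on the other 12. Control 6 also had a median of 2.56 over 14 lymphocyte markers, against -0.95 to -0.576 in the other controls and -0.935 to -0.683 in the high fat livers, and a median of 0.894 over 69 ribosomal protein genes, against at most 0.0633. Without control 6 the number of features called was 910, and the counts of a list that changed without it are given beside that list. The shares of all features given above (3.64% called, 1.83% higher and 1.8% lower) are the background for every count of a list. Controls and high fat livers lay together on slides 1, 2 and 3 only. All 14 hepatocyte markers were measured, and 1 rose and none fell (median -0.0126). Of 9 pancreas markers 1 fell and none rose (median 0.0114). The adipocyte markers Adipoq, Lep and Plin1 were not well above background on enough arrays to be tested.

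**Figure D1:**
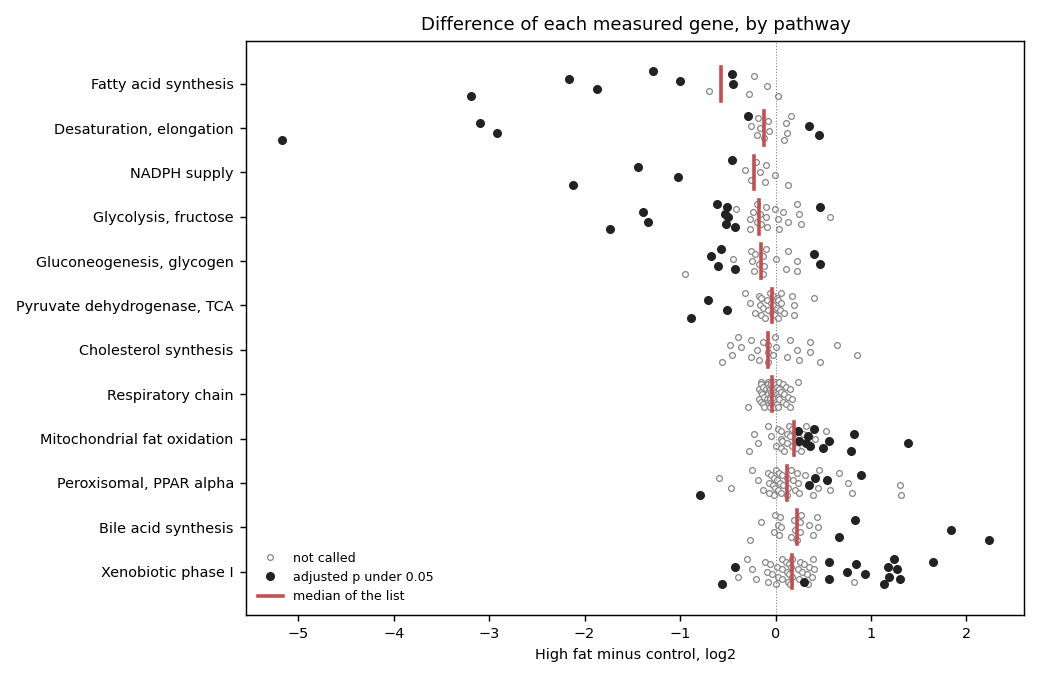
Each point is 1 measured gene, placed by its difference between high fat and control livers (log2, x axis) within 12 gene lists (y axis). Filled points have an adjusted p under 0.05, open points do not, and the red line is the median of the list. The median was -0.576 for fatty acid synthesis and 0.227 for bile acid synthesis, and no gene of cholesterol synthesis or of the respiratory chain was called.

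Genes of fatty acid synthesis fell furthest. Of 12 measured genes that supply acetyl-CoA and build it into fatty acids, 7 fell and none rose, with a median difference of -0.576 against -0.00848 over all features. Of 17 genes of desaturation and elongation 4 fell and 2 rose (median -0.117). Of 12 genes of NADPH supply and the pentose phosphate pathway, not all of which make NADPH, 4 fell and none rose (median -0.23). Without control 6 the falls numbered 8, 4 and 6. The medians of the 3 lists were negative on slides 1, 2 and 3, except for desaturation and elongation on slide 1 (0.127).

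Promoter sequences are shown for 3 of the genes that fell together, the neighbouring desaturase genes Scd and Scd2 on chromosome 1 and the citrate lyase gene Acly on chromosome 10, to set the letters around their start sites beside the motifs of lipogenic factors. They are the 300 bases that RefSeq gives around each gene's start on build GRCr8, at chr1:253231682-253231981 (minus strand) for Scd, chr1:253118127-253118426 (plus strand) for Scd2 and chr10:85963582-85963881 (minus strand) for Acly. Capitals mark CCAAT, the box bound by NF-Y, on either strand.
Scd: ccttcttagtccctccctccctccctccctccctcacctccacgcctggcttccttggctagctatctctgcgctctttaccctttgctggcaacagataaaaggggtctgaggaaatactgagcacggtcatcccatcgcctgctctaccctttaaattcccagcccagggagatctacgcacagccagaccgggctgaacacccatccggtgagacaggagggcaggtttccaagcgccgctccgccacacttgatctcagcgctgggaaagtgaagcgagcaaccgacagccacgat
Scd2: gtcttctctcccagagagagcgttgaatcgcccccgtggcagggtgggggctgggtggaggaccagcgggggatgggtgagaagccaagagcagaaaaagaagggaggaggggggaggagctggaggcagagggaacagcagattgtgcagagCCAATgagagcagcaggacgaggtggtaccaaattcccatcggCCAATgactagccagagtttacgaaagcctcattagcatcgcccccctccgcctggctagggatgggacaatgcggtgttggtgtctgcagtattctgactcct
Acly: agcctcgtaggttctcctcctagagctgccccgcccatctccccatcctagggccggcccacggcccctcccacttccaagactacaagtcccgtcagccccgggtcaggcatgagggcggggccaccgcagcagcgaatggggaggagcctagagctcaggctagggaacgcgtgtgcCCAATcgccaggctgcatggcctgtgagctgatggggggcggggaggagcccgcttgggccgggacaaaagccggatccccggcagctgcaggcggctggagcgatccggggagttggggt
Scd2 held this box at 2 places, Acly at 1 and Scd at none. Of the 29 lipogenic and sugar-use genes that fell, 24 had a promoter in the table, and 12 of these held CCAAT on either strand, against 38.4% of the 9219 promoters of measured named genes. The E-box CACGTG (9.27% of those promoters) and the sterol element TCACNCCAC (1.02%), also searched on both strands, occurred in none of the 24. Only exact matches within the 300 bases were searched, so imperfect or more distant sites would be missed. For the sterol element, none in 24 is also near its share of 1.02%. For the E-box, 24 promoters are few for a share of 9.27%. The sequence GGGCGG, searched in the same way, was held by 12 of the 24, against 58.4% of the 9219 promoters. None of these counts was tested against its share.

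Scd, the stearoyl-CoA desaturase that makes monounsaturated fatty acids, had the largest fall of any named gene. The controls lay at -0.12, 0.82 and 1.48 (lowest, median and highest log2 ratio) and the high fat livers at -5.88, -4.53 and -3.03. Every high fat liver was below every control, and the difference was -5.17 ± 0.40 (log2, SE, adjusted p = 6.7e-07), or -5.23, -6.0 and -4.95 within slides 1, 2 and 3. Scd2, its neighbour, differed by -2.91 ± 0.22 at its brightest probe, where the groups did not overlap, but by -0.04 and -0.28 at its other probes. The delta-5 and delta-6 desaturase genes Fads1 (-0.16, adjusted p = 0.768) and Fads2 (-0.12, adjusted p = 0.852), which act on polyunsaturated fatty acids and are named after their values were seen, did not pass.

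Fasn encodes fatty acid synthase. Its controls lay at -1.63, 0.14 and 1.39 and its high fat livers at -4.03, -3.49 and -1.89. The groups did not overlap and the difference was -3.19 ± 0.49 (SE, adjusted p = 0.000892), with -2.81 at a further probe. Elovl6, which elongates palmitate, had controls at -1.60, 0.00 and 1.79 and high fat livers at -3.67, -3.08 and -2.10. All high fat livers were lower, by -3.10 ± 0.57 (SE, adjusted p = 0.00315) and by -1.45 at its other probe. Acaca, the acetyl-CoA carboxylase of the cytosol, fell by 1.87 ± 0.30 on the log2 scale without overlap (adjusted p = 0.00119), and by 0.49 at its other probe. Acacb, the isoform at the mitochondrion, is named after its value was seen and fell by 0.44 with overlap.

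Upstream of these steps, Acly, which splits citrate into cytosolic acetyl-CoA, had controls at -0.90, 0.39 and 1.30 and high fat livers at -2.80, -2.04 and -0.64. The groups overlapped and the difference was -2.16 ± 0.41 (SE, adjusted p = 0.00369). Slc25a1, the mitochondrial citrate carrier, fell by 0.46 ± 0.10 with overlap (adjusted p = 0.014, or 0.104 in the slide-adjusted fit). Thrsp (Spot 14) and Mid1ip1, its partner at acetyl-CoA carboxylase, differed by -1.28 ± 0.28 and -1.0 ± 0.25 (adjusted p = 0.0119 and 0.025), each with overlap. Mid1ip1 lost its call without control 1, 2 or 5 or high fat 3, 4 or 5.

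Among the falls in the list of NADPH supply and the pentose phosphate pathway was Me1, the cytosolic malic enzyme (-2.12 ± 0.40, SE, adjusted p = 0.00326). Tkt (-1.02 ± 0.13) and Rpia (-0.45 ± 0.10) of the pentose phosphate pathway also fell. Me1 lay at -0.55, 0.31 and 1.33 in controls and at -2.31, -1.89 and -1.0 in high fat livers. Tkt lay at 0.17, 0.37 and 0.98 and at -0.78, -0.56 and -0.10. In these 3 genes every high fat liver was below every control. Rpia missed the threshold in the slide-adjusted fit (adjusted p = 0.081).

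Control livers differed widely among themselves in these genes. Over the 15 genes of the 3 lists that fell, the median SD was 0.554 in controls and 0.357 in high fat livers, and the control SD was the larger in 11 of 15. Over all features the medians were 0.143 and 0.114, and the control SD was the larger in 64.7%. The same rats were high or low in many of the genes. Control 6 was the lowest control in 10 of 15 and controls 1 and 7 were the highest in 6 and 7 of 15, with medians over the genes of -0.538, 0.859 and 0.682. Among high fat livers, high fat 3 was the lowest in 11 of 15 and high fat 1 and 6 were the highest in 8 and 4 of 15. These genes were chosen on the same livers, so the counts describe the rats only.

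**Figure D2:**
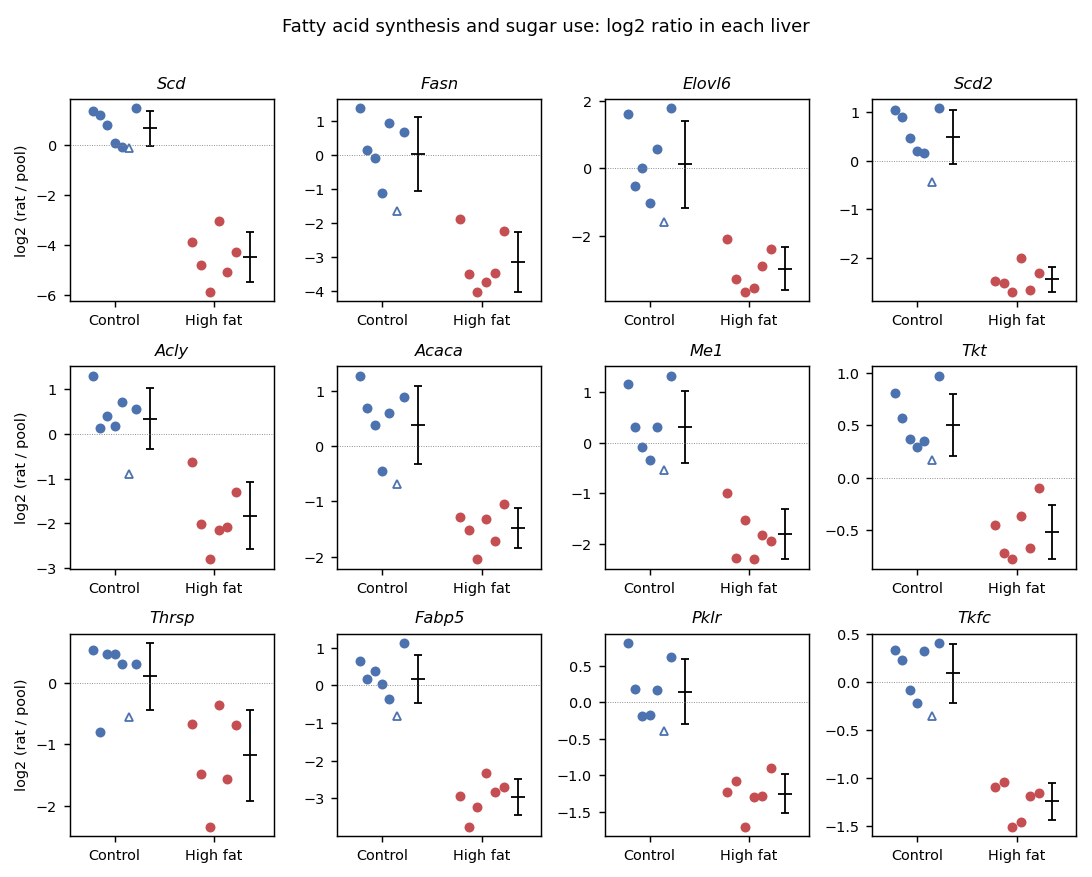
Each panel shows 1 gene, with the log2 ratio of each rat to the pool on the y axis and the 7 control (blue) and 6 high fat (red) livers on the x axis. The open triangle is control 6 and the black bar is the mean and SD of the group. In Scd all high fat livers sit between -5.88 and -3.03, below the lowest control at -0.12, and in Acly and Thrsp the groups overlap.

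Of 26 regulators of lipogenesis 2 fell and none rose (median -0.0211). Srebf1, which encodes SREBP-1, had controls at -0.34, 0.39 and 0.70 and high fat livers at -1.10, -0.48 and 0.07. The groups overlapped and the difference was -0.80 ± 0.19 (SE, adjusted p = 0.0199), with -0.77 and -0.12 at its other probes. Its call was lost without high fat 3, 4 or 5. Mlxipl, which encodes ChREBP, differed by -0.70 ± 0.15 without overlap (adjusted p = 0.009) but not in the slide-adjusted fit (-0.63, adjusted p = 0.12). Pparg (0.01) and Ppara (0.19) did not pass, nor did Insig1 (-1.11, adjusted p = 0.175), an SREBP target that holds SREBP in the endoplasmic reticulum, named after its value was seen.

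Of 17 genes of uptake and binding 2 rose and 1 fell (median 0.0672), or 3 and 2 without control 6. Fabp5, a fatty acid binding protein gene better known from skin, had controls at -0.82, 0.18 and 1.13 and high fat livers at -3.75, -2.89 and -2.33. The groups were fully apart (-3.13 ± 0.30, SE, adjusted p = 1.27e-05). A probe of its pseudogene Fabp5-ps3 gave -2.14, and the 2 may not measure separate transcripts. The liver form Fabp1 (-0.16, adjusted p = 0.641) and the fatty acid translocase gene Cd36 (0.38, adjusted p = 0.403) did not pass. Of 29 genes of triglyceride synthesis and lipid droplets 3 fell and none rose (median -0.00514), and without control 6 there were 3 falls and 1 rise. Pnpla5, a droplet lipase gene, fell by 2.32 ± 0.38 (SE, adjusted p = 0.00137), from -0.94, 0.02 and 1.68 in controls to -2.12, -1.96 and -1.88. The droplet protein gene Cidec did not pass (-0.06).

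Genes that feed sugar into this pathway also fell. Of 30 genes of glycolysis and fructose use 9 fell and 1 rose (median -0.178), and without control 6 the counts were the same. The falls included the fructose transporter gene Slc2a5 and the genes of ketohexokinase (Khk) and triokinase (Tkfc), which begin fructose breakdown. Slc2a5 lay at -0.31, 0.52 and 0.90 in controls and at -2.13, -1.28 and -0.39 in high fat livers, apart in every liver (-1.73 ± 0.29, SE, adjusted p = 0.00156). Tkfc lay at -0.35, 0.23 and 0.41 and at -1.51, -1.18 and -1.05 (-1.34 ± 0.12, adjusted p = 8.65e-06). Khk, named after its value was seen, fell by 0.51 without overlap. Sord, which makes fructose from sorbitol, rose by 0.46 ± 0.07 (adjusted p = 0.00101), also without overlap.

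Of the glycolytic enzymes, Pklr, the liver pyruvate kinase and a ChREBP target, fell most. Its controls lay at -0.39, 0.17 and 0.81 and its high fat livers at -1.70, -1.26 and -0.90, with no overlap (-1.39 ± 0.18, SE, adjusted p = 0.000199). Gapdh (-0.52 ± 0.08) and Eno1 (-0.50 ± 0.07) fell by less, and Eno1 had a SD of 0.05 among high fat livers.

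At the entry of pyruvate into the mitochondrion 3 of 32 genes of pyruvate dehydrogenase and the TCA cycle fell and none rose (median -0.0412). They were the subunit genes Pdhb (-0.70 ± 0.15, SE, adjusted p = 0.00991) and Dlat (-0.51 ± 0.12) and the inhibitory kinase gene Pdk1 (-0.89 ± 0.13, adjusted p = 0.000698). Pdk1 and Pdhb were lower in every high fat liver than in any control. In the slide-adjusted fit Pdhb and Dlat missed the threshold (adjusted p = 0.0927 and 0.0619). Pdk4, the kinase gene that PPAR alpha and fasting induce, did not pass (-0.07, adjusted p = 0.841). Of 59 respiratory chain genes none passed the test in limma (median -0.0388).

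Of 22 genes of gluconeogenesis, glycerol and glycogen 4 fell and 2 rose (median -0.156), or 5 and 1 without control 6. The glycogen branching enzyme gene Gbe1 (-0.57 ± 0.08, SE, adjusted p = 0.000597) and the liver glycogen phosphorylase gene Pygl (-0.43 ± 0.07, adjusted p = 0.00152) fell in every high fat liver below every control. Gbe1 gave -0.19 at its other probe. The shuttle dehydrogenase genes Mdh1 (-0.67 ± 0.12) and Gpd1 (-0.60 ± 0.12) fell, and the glycerol channel gene Aqp9 (0.41) and Fbp2 (0.47) rose. Aqp9 lost its call in 10 of 13 omissions of 1 rat and in the slide-adjusted fit (adjusted p = 0.0869). Pck1, which commits oxaloacetate to glucose, differed by 0.23 ± 0.20 and G6pc1, which releases glucose, by -0.95 ± 0.28, and neither passed (adjusted p = 0.641 and 0.0743).

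Genes of fatty acid oxidation rose. Of 36 mitochondrial genes 11 rose and none fell, 31 differed in the upward direction, and the median was 0.19. The counts were the same without control 6. The medians were 0.276, 0.245 and 0.193 within slides 1, 2 and 3. Every high fat liver had a list median above every control (0.0968 to 0.233 against -0.214 to 0.0489).

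Cpt1a, which lets long-chain fatty acids enter the mitochondrion, had controls at -0.73, -0.32 and 0.19 and high fat livers at 0.04, 0.45 and 0.98. The groups overlapped and the difference was 0.82 ± 0.19 (SE, adjusted p = 0.0157). Within the spiral of beta oxidation, Hadha and Hadhb, the 2 subunits of the trifunctional protein, rose by 0.40 ± 0.06 and 0.50 ± 0.08, and the acyl-CoA dehydrogenase genes Acadvl and Acadm by 0.25 ± 0.05 and 0.36 ± 0.08. Eci1 and Decr1, which reshape double bonds so that unsaturated fatty acids can be oxidised, rose by 0.79 ± 0.15 and 0.56 ± 0.10. In these 6 genes the groups did not overlap. Further probes gave 0.15 and 0.32 for Hadha and 0.19 for Acadvl. Acsm3, a medium-chain acyl-CoA ligase gene, rose by 1.39 ± 0.34 with overlap and lost its call in the slide-adjusted fit (1.07, adjusted p = 0.251).

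Of 45 genes of peroxisomal oxidation and of the PPAR alpha programme 4 rose and 1 fell (median 0.115), or 3 and 2 without control 6. Ech1, an isomerase of unsaturated acyl-CoA, had controls at -0.50, -0.34 and 0.07 and high fat livers at 0.40, 0.59 and 0.88. Its groups were apart (0.90 ± 0.11, SE, adjusted p = 0.000199). Phyh, which begins the breakdown of phytanic acid, rose by 0.54 ± 0.13. The textbook target Cyp4a1 (0.24, adjusted p = 0.613) did not pass. Fgf21, a hormone gene induced in fasting, was lower without passing (-0.46, adjusted p = 0.0797), and Angptl4, which inhibits lipoprotein lipase, fell (-0.79 ± 0.19, adjusted p = 0.0215, or 0.253 in the slide-adjusted fit). Of 10 ketogenesis genes only Bdh2 passed (0.67 ± 0.12, adjusted p = 0.00326).

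A few genes of bile acid synthesis and sterol export rose, while none of cholesterol synthesis passed. Of 23 genes of bile acid synthesis 4 rose and none fell (median 0.227), of 25 of sterol and bile transport 2 rose and none fell (median 0.0884), and of 25 of cholesterol synthesis and uptake none passed (median -0.0797). The share of all features that rose was 1.83%. Without control 6 the bile acid count was again 4 and 1 transport gene fell beside the 2 rises. For bile acid synthesis the count in the slide-adjusted fit was 2.

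Cyp7a1, whose enzyme takes the first and limiting step from cholesterol to bile acids, had controls at -2.52, -1.97 and 0.21 and high fat livers at -0.87, 1.03 and 1.51. Controls 3 and 4 lay above high fat 1, and control 4 also above high fat 3. The difference was 2.24 ± 0.52 (SE, adjusted p = 0.0181), or 1.47, 1.94 and 1.90 within slides 1, 2 and 3, and 1.80 (adjusted p = 0.138) in the slide-adjusted fit. Cyp7b1, of the alternative pathway, lay at -1.43, -1.27 and -0.41 in controls and at 0.32, 0.69 and 1.30 in high fat livers. The groups did not overlap (1.84 ± 0.21, adjusted p = 8.35e-05).

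Abcg5, which with Abcg8 forms the pump that moves sterol into bile, had controls at -1.90, -0.89 and -0.24 and high fat livers at 0.69, 1.08 and 1.41. It was higher in every high fat liver (2.06 ± 0.28, SE, adjusted p = 0.000357), and Abcg8 was not measured. Cyp8b1, which sets the share of cholic acid, rose by 0.83 ± 0.19 with overlap through high fat 4 (adjusted p = 0.0144). Scarb1, the HDL receptor gene, rose by 0.42 ± 0.09 and Slc27a5, a bile acid ligase gene, by 0.67 ± 0.13. Their other probes gave 0.25 and 0.55. The slide-adjusted fit lost the calls of Scarb1 (adjusted p = 0.0771) and Slc27a5 (adjusted p = 0.0508). Sqle, a step of cholesterol synthesis, did not pass at 0.86 ± 0.33 (adjusted p = 0.186).

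Among 29 lipoprotein genes 4 fell and 2 rose (median 0.0416). Apoa4, an apolipoprotein gene that follows fat flux, had controls at 0.57, 0.88 and 1.14 and high fat livers at -0.94, -0.06 and 0.14. Its groups were apart (-1.11 ± 0.16, SE, adjusted p = 0.000559). Lipc, the hepatic lipase gene, fell by 0.32 ± 0.08 without overlap, and missed the threshold in 4 of 13 omissions and in the slide-adjusted fit (adjusted p = 0.212). Lcat, which esterifies cholesterol on HDL, rose by 0.30 ± 0.05 (adjusted p = 0.00158), again without overlap, and the paraoxonase gene Pon3 rose by 0.46 ± 0.09.

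Genes that oxidise drugs and other foreign compounds gave the most rises of any list in number. The share was larger among the mitochondrial oxidation genes, where 11 of 36 rose. Of 51 phase I genes 13 rose and 2 fell (median 0.177), and 12 rose and 1 fell without control 6. Cyp2e1, which oxidises ethanol, acetone and fatty acids, had controls at -1.48, -0.52 and -0.16 and high fat livers at 0.67, 0.86 and 1.34. Its groups were apart (1.65 ± 0.20, SE, adjusted p = 0.000154), with 2.17, 1.83 and 2.01 within slides 1, 2 and 3. Cyp1a2, which metabolises caffeine, rose by 1.24 ± 0.21, Cyp3a2 by 1.27 ± 0.14 and Cyp2j4 by 0.56 ± 0.10, all without overlap. The flavin monooxygenase genes Fmo1 (1.18 ± 0.20) and Fmo5 (1.31 ± 0.25) rose, Fmo1 without overlap. Nr1i3, which encodes the drug-sensing receptor CAR, rose by 1.19 ± 0.22 with overlap (adjusted p = 0.00277).

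Of 63 phase II and antioxidant genes 4 rose and 1 fell (median 0.0344), or 5 and 3 without control 6. The estrogen sulfotransferase gene Sult1e1 lay at -0.79, -0.50 and 0.03 in controls and at 0.03, 0.48 and 0.67 in high fat livers. The groups touched but did not overlap (0.86 ± 0.12, SE, adjusted p = 0.000559). Nat8 (1.26 ± 0.27), Gstm7 (0.71 ± 0.12) and Gsto1 (0.35 ± 0.07) also rose. The slide-adjusted fit lost Nat8 and Gsto1 (adjusted p = 0.0521 and 0.0672).

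**Figure D3:**
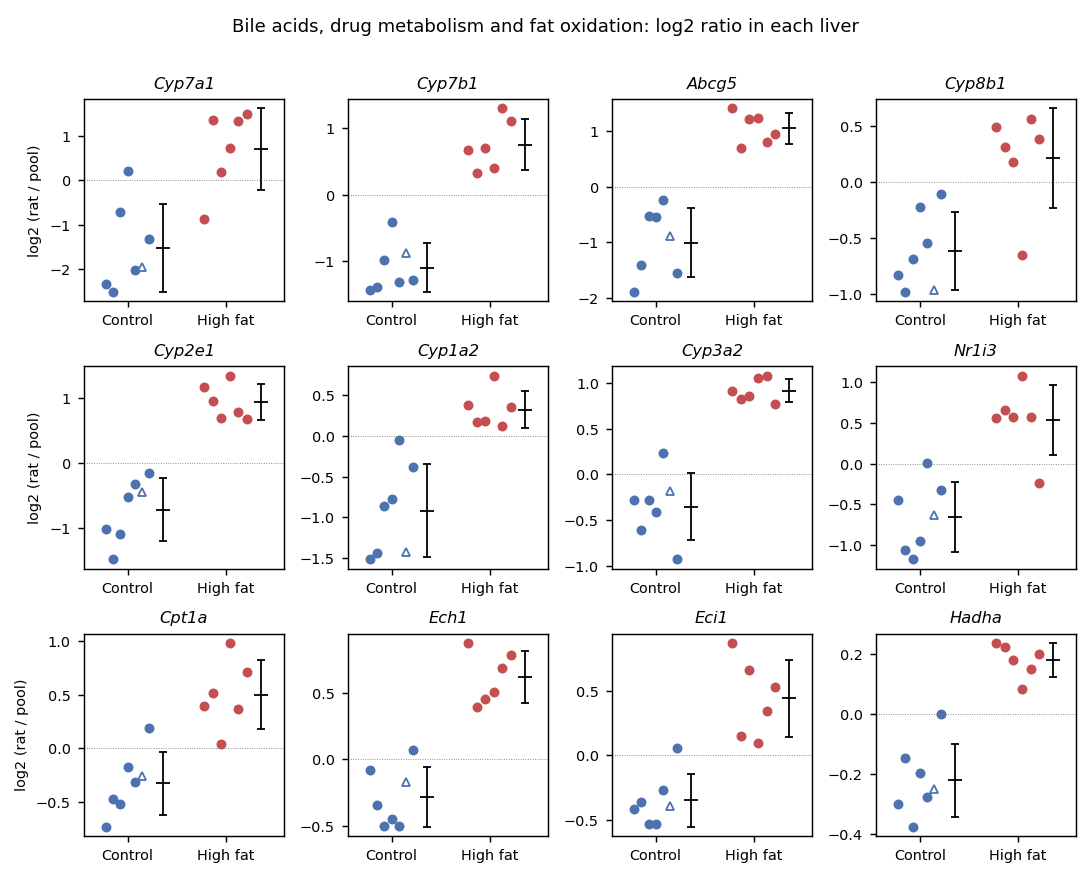
Each panel shows 1 gene that rose, drawn as for the fallen genes: log2 ratio of each rat to the pool (y axis) in 7 control (blue, control 6 as an open triangle) and 6 high fat (red) livers, with mean and SD in black. In Cyp2e1 the high fat livers sit between 0.67 and 1.34, above the highest control at -0.16, while in Cyp7a1 controls 3 and 4 lie above the lowest high fat liver at -0.87.

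Amino acid catabolism, with 63 measured genes, had 4 rises and 1 fall (median 0.0855), and without control 6 there were 2 rises and 1 fall. Glul, which makes glutamine from ammonia in the cells around the central vein, rose by 0.70 ± 0.16 (SE, adjusted p = 0.013), from -0.89, -0.38 and 0.11 in controls to 0.08, 0.37 and 0.53, with a narrow overlap, and missed the threshold in the slide-adjusted fit (adjusted p = 0.067). Gldc of glycine cleavage fell by 0.60 ± 0.11 (adjusted p = 0.00402), with -0.31 at its other probe. None of 11 urea cycle genes passed (median 0.0606). In the growth hormone and insulin list 2 of 33 genes fell (3 without control 6), against 1.8% of all features. They were the growth hormone receptor gene Ghr (-0.28 ± 0.07) and Akt1 (-0.27 ± 0.07), and their calls were lost in 6 and 9 of 13 omissions and in the slide-adjusted fit (adjusted p = 0.184 and 0.338). Ghr gave -0.19 and -0.06 at its other probes.

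Clock genes were spread over a wide range in both groups. Of 20 measured, 1 passed, or 2 without control 6. It was the deubiquitinase gene Usp2 (1.44 ± 0.36, SE, adjusted p = 0.0278). Its controls lay at -1.27, -0.93 and -0.14 and its high fat livers at -0.25, 0.50 and 1.69, with overlap. The call was lost in 6 of 13 omissions and in the slide-adjusted fit (1.19, adjusted p = 0.26). Dbp, a clock output factor, differed by more (1.79 ± 0.62) and did not pass (adjusted p = 0.139), with controls at -2.63, -1.58 and 0.15 and high fat livers at -0.98, 0.26 and 1.95. Bmal1, the positive arm of the clock, whose phase opposes that of Dbp, differed by -1.03 ± 0.37 (adjusted p = 0.151), and Per2 by 0.77 ± 0.25 (adjusted p = 0.116).

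The same rats stood at the ends of these genes. High fat 4 and 6 had the highest Dbp (1.95 and 1.39) and the lowest Bmal1 (-1.94 and -1.71) of all 13 livers. Controls 3 and 4 had the highest Dbp (0.15 and 0.06) and the lowest Bmal1 (-0.27 and -0.22) among controls, and they also had the highest Cyp7a1 of that group (-0.71 and 0.21). The time of death of single rats is not given in the labels, and its part in these values was not tested.

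**Figure D4:**
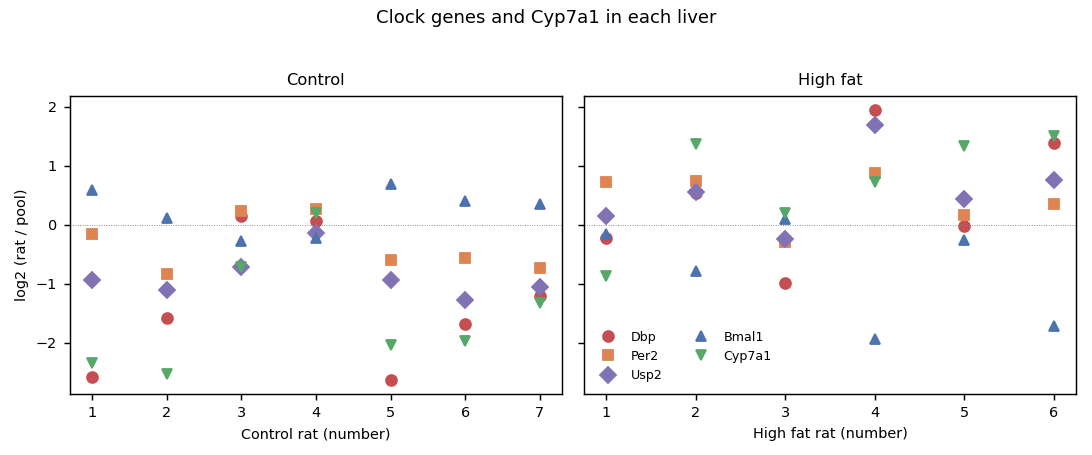
Log2 ratio to the pool (y axis) of the clock genes Dbp, Per2, Usp2 and Bmal1 and of Cyp7a1 in each of the 7 control (left) and 6 high fat (right) livers (x axis, rat number). Where Dbp is highest, at 1.95 in high fat 4, Bmal1 is lowest, at -1.94.

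None of 18 macrophage, 14 endothelial, 12 bile duct, 8 erythroid or 14 lymphocyte markers passed, with medians of 0.1, 1.41e-05, 0.0877, 0.264 and -0.499. Without control 6 the lymphocyte median was -0.0112 and 1 bile duct marker fell. Of 27 stellate cell and matrix markers 3 rose: Rgs5 of pericytes (0.60 ± 0.08, SE, adjusted p = 0.000358), the stellate cell genes Reln (0.52 ± 0.10) and Hand2 (0.39 ± 0.07). Hand2 missed the threshold in the slide-adjusted fit (adjusted p = 0.0817), and its other probe gave only 0.08. Rgs5 and Hand2 lay higher in every high fat liver, while the collagen gene Col1a1, named after its value was seen, differed by 0.34 without passing. The stellate list had medians of -0.195, 0.0551 and 0.343 within slides 1, 2 and 3. In whole liver more cells of a type and more RNA per cell cannot be told apart. Neither ribosomal protein genes (0 of 69, median -0.175, or -0.0538 without control 6) nor proliferation genes (0 of 21) passed in limma. Over all features 3494 had an unadjusted p under 0.05.

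Outside the lists, Sbspon, a gene for a secreted matrix protein, had controls at -1.15, -0.95 and -0.50 and high fat livers at 0.22, 0.68 and 1.08. It rose without overlap (1.5 ± 0.17, SE, adjusted p = 6.5e-05). Slc1a2, a glutamate transporter gene, rose by 1.41 ± 0.25, and Kcnh1 and Ppp2r2b, better known from neurons, by 1.43 ± 0.23 and 1.31 ± 0.22. Cavin3, a gene of caveolae, lay at -0.39, 0.47 and 0.80 in controls and at -1.91, -1.42 and -0.85 in high fat livers. It fell in every high fat liver below every control (-1.65 ± 0.23, adjusted p = 0.000466). Ky, a muscle gene, fell by 2.03 ± 0.24, and 5 of 6 high fat arrays showed its probe well above background. Among interferon response genes 1 of 37 fell (2 without control 6), against 1.8% of all features. It was Ifi27l2b (-1.09 ± 0.20), whose other probe gave 0.00.

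A high protein diet of 45% carbohydrate, 10% fat and 45% protein gives a further comparison for the same high fat livers. Between high fat and high protein livers 1549 features differed (7.01%), or 344 in the slide-adjusted fit. High fat minus high protein was -4.53 for Scd and -3.47 for Fasn (adjusted p = 7.97e-06 and 0.000271). It was 1.85 for Abcg5, 1.38 for Cyp2e1 and 1.07 for Cpt1a (adjusted p = 0.000536, 0.000333 and 0.00213). For Cyp1a2 it was 0.45 and for Fmo5 0.28, and neither passed (adjusted p = 0.265 and 0.648). Cyp7a1 differed by 1.23 ± 0.54 (SE), which did not pass (adjusted p = 0.207). Cib2, a calcium-binding protein gene, stood at -1.65 against control in high fat livers and at -2.41 against control in high protein livers, and these differences share the 7 controls.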

How the data were processed

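RNA of 19 rat livers was hybridised to 2-colour Agilent arrays, with no dye swap. The deposited scanner files hold spot intensities that the authors extracted with Feature Extraction 10.5.1.1, per the submitters' processing notes, with probe positions on rn4. The authors' deposited table of log2 values, whose processing is not given in the sources used here, had column medians of 8.13 to 8.15 and served as an alternative only.

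Mean signals were background corrected (normexp, offset 50, spots whose background exceeded the signal by over 50 dropped) and loess normalised within arrays. Control spots had weight 0 and outlier spots were left out. Probes well above background in Cy5 on at least 6 arrays were kept, and a gene was read from its brightest probe. A model of 3 diets was fitted to all 19 arrays with limma 3.58.1 in R 4.3.3 and checked on simulated data. Tests were two-sided, with Benjamini-Hochberg adjustment over 22107 features. The number of arrays limits the precision, and p-values measure the spread between rats.

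The 15 largest named rises and falls, up to 6 called genes of each list, and a set of metabolic genes were named. The comparison and the lists were chosen with earlier results of these data known. Alternatives covered background, normalisation, dye, filters, probes, weights, slide, replicate number and the omission of each rat. A few single genes are left unreported by name but stay in all counts.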

Additional observations from a re-analysis of the deposited data

Results flagged for a closer look

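In 19 of 302 checks of a gene in a group, 1 liver stood far from the rest of its group, where chance gives about 1 in 20. Control 6 accounted for 6 of these. It was high in the lymphocyte genes Gzma (2.79, other controls -1.15 to -0.295) and Ltb (2.41, others -0.637 to -0.508) and in the ribosomal protein genes Rps20 (0.821) and Rps24 (0.919), and low in Hsd17b7 (-0.578) and Acbd4 (-0.673). Its array had the widest log ratios of the 13.

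High fat 1 stood apart in 3 genes, Elovl1 (0.206), Mid1ip1 (-0.0788, other high fat livers -1.15 to -0.757) and Decr1 (0.636, others 0.351 to 0.435). High fat 4 was low in Cyp8b1 (-0.655) and Sesn2 (-0.714). Single values were Kcnh1 in high fat 3 (0.134), Fgf21 in high fat 2 (-0.672) and Acbd4 in high fat 5 (-0.0233).

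Control 7 was high in Ky (1.68, other controls 0.206 to 0.707) and Cd36 (1.1, others -0.628 to -0.0271). Control 5 was high in Ghr (0.183) and Cyp4f4 (-0.101), and control 1 low in Pparg (-0.512).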

How the results depend on the processing

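Of 105 called genes among the 158 named, 79 kept their call through all 13 omissions of 1 rat and 58 through all 15 other settings, and none reversed in either. With slide as a fixed block 443 features were called, 209 higher and 234 lower (400 of them also among the 804), and 344 between high fat and high protein. Cy5 alone gave 263 lower, and array weights 2700 between high fat and high protein. Leaving out 1 rat gave 602 to 910 called (301 to 416 higher, 301 to 494 lower), and 1145 to 2170 between high fat and high protein. The extremes were high fat 2 (602) and control 6 (910).

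Genes near 0 that were never called changed sign. Pparg was -0.000603 with normexp on every spot, -0.0117 with array weights, -0.00956 with slide as a fixed block, and -0.0713 to 0.0469 without 1 rat. Cidec was 0.0664 with the authors' log2 values, 0.0368 with Cy5 alone and 0.0194 with slide as a fixed block, where Pdk4 was 0.000744. The causes were not tested.

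Replicate numbers did not pair the rats: same-numbered rats correlated at -0.129 to 0.0963, and with the number as a replicate block 650 features were called. Signal over background and the naming of probes both limit the list of measured genes. It lacks Abcg8, Plin2 and Cyp2b1, and which of these limits left them out was not examined.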

Other observations

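Genes known to be expressed around the central vein of the liver lobule lay higher in high fat livers. In a list of them written after the results were seen, 9 of 21 measured genes rose and none fell. Of all features 1.83% rose. All 21 genes were in the upward direction, with a median difference of 0.696 against -0.00848 over all features. Because the list was written with these values known, its count describes the genes and is not a test. The median difference of high protein from control over the same genes was 0.145, and both differences share the 7 controls. Members outside the report were the ammonium transporter gene Rhbg (1.04, adjusted p = 0.00998), the dicarboxylate transporter gene Slc13a3 (1.13, adjusted p = 0.00156) and Lect2 (0.48, adjusted p = 0.00103). Por, which passes electrons to the cytochromes P450, Aldh1a1, which makes retinoic acid, and Oat of ornithine use differed by 0.82, 0.85 and 0.73 without passing (adjusted p = 0.0502, 0.0915 and 0.183). Since 10 of the 21 genes also stand in the lists of the report, the count repeats part of what is given there. Most of the genes that rose (Cyp2e1, Cyp1a2, Cyp7a1, Nr1i3, Glul and Slc1a2) are already named above.

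Of 22 measured genes known from the other end of the lobule, around the portal vein, 1 rose and 3 fell, against 3.64% of all features called, and the median was 0.0304. Of these 22 genes 18 also stand in the lists of the report. The secreted phosphoprotein gene Spp2 rose by 0.36 (adjusted p = 0.00183), while Cyp2f4 (-0.42) and Gldc (-0.60) fell. The differences are limma values over all features.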
